A study of Homo sapiens with 8 samples.

Results

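The NF-kB system was followed through 10 genes in MDA231-BrM2 breast carcinoma cells that had been grown with or without astrocytes. The genes were taken by symbol from the deposited count table of 57445 genes. They are 5 subunits (NFKB1, NFKB2, REL, RELA and RELB) and 5 IkB-type regulators (NFKBIA, NFKBIB, NFKBIE, NFKBIZ and BCL3). Each of the 10 had 1 entry in the table, and each passed the low-count filter (an average of 10 or more counts across the 8 libraries), which left 15806 genes for testing.

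MDA231-BrM2 cells descend from the human breast cancer line MDA-MB-231 and form metastases in the brain. The study has 4 groups of 2 libraries each: cells with the Cx43 hairpin Cx43sh1 and astrocytes, cells with the Cx43 hairpin Cx43sh2 and astrocytes, control-hairpin cells with astrocytes (the control coculture), and control-hairpin cells alone. Astrocytes were added 1 to 1 with the carcinoma cells for 24 h. Translating ribosome affinity purification was used, in which anti-GFP beads capture tagged ribosomes, so the libraries hold RNA on ribosomes of the carcinoma cells and not their whole RNA. All carcinoma cells carried a hairpin, and no library of Cx43-depleted cells without astrocytes was analysed here, so an effect of Cx43 loss on cells by themselves cannot be told apart from one on the response to astrocytes. The series design calls the 2 libraries of a group independent replicates without naming cultures, so p-values measure the spread between these libraries, which may be technical. The species of the astrocytes is not given in the sources used here.

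NF-kB proteins act as dimers. RELA, REL and RELB carry the domains that activate transcription, while NFKB1 and NFKB2 encode long precursors that hold dimers back and are processed into short DNA-binding subunits. The inhibitors IkB-alpha (NFKBIA), IkB-beta (NFKBIB) and IkB-epsilon (NFKBIE) keep dimers in the cytoplasm until an IkB kinase marks them for destruction, for example after TNF or interleukin-1 binds its receptor. NFKBIA is itself a target of NF-kB, and its resynthesis ends the response. IkB-zeta (NFKBIZ) and BCL3 sit mainly in the nucleus, bind homodimers of the short subunits, and can raise or lower the transcription of selected targets. Much of the control of the system is by protein degradation and location, which RNA counts do not measure.

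The promoters of the 3 members that changed with astrocytes are shown first, since they hold matches to the DNA element that NF-kB binds, followed by the NFKB2 window with the most matches among the members. Windows run from 250 bases before to 50 bases after an annotated start, are written 5′ to 3′ on the gene's strand, and come from RefSeq on GRCh38.p14. Capitals mark matches to the kB consensus on either strand. They are NFKBIA at chr14:35404700-35404999 (minus strand), NFKBIZ at chr3:101827740-101828039 and at a second start at chr3:101849264-101849563 (plus strand), BCL3 at chr19:44748458-44748757 (plus strand), and NFKB2 at chr10:102394328-102394627 (plus strand).
NFKBIA: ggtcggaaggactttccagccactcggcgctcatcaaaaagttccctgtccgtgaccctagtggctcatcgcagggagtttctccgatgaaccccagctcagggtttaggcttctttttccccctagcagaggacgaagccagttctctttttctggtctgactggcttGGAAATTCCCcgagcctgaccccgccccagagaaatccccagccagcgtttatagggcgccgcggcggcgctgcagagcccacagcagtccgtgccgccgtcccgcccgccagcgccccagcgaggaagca
NFKBIZ window 1: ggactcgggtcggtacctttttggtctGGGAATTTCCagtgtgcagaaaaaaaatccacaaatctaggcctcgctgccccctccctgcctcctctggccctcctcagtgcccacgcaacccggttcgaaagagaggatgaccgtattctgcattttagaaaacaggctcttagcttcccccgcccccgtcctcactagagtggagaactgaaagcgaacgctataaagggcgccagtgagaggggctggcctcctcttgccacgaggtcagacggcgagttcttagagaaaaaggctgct
NFKBIZ window 2: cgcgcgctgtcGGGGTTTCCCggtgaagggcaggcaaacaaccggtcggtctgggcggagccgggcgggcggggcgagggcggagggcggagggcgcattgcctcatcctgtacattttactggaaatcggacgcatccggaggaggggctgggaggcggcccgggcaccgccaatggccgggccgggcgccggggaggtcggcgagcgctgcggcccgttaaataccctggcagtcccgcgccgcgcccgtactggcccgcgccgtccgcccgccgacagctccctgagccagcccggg
BCL3: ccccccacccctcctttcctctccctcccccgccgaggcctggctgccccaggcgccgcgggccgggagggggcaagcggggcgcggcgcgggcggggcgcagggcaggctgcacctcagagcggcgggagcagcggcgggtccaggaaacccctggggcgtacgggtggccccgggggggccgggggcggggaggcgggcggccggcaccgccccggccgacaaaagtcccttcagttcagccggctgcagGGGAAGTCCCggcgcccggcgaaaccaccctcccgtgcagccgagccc
NFKB2 window 2: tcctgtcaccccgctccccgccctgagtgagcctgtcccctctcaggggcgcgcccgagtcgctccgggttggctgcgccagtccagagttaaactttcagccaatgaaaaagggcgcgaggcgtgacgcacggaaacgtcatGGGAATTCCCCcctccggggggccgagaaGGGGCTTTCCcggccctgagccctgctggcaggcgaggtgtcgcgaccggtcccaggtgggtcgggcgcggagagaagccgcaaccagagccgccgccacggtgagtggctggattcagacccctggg

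RefSeq gave 14 windows for 8 of the 10 members, and RELB and NFKBIE were not matched. A kB consensus was found in 9 of the 14 windows, against 5.91% of the 35116 windows of all genes. By gene, 7 of the 8 members held one, against 7.09% of 27305 gene symbols. Counting each base from the start site at 0, the NFKBIA match lay at -81 to -72, the matches in the NFKBIZ windows at -223 to -214 and -239 to -230, and the BCL3 match at 2 to 11. NFKB2 window 2 held matches on both strands from -107 to -97, which overlap each other, and another at -78 to -69. NFKB1, REL and NFKBIB, whose levels passed no test between control cells with and without astrocytes, also held a match, so a match did not separate the members that changed from those that did not. RELA was the member without one in either of its windows. The core of the interferon-response element, searched as TTCNNTTTC on both strands, was in 3 of the 14 member windows, those being 1 each of NFKBIA, NFKBIZ and RELA, and in 8.11% of all windows. A match is a run of letters, and whether it is bound was not measured.

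**Figure D1:**
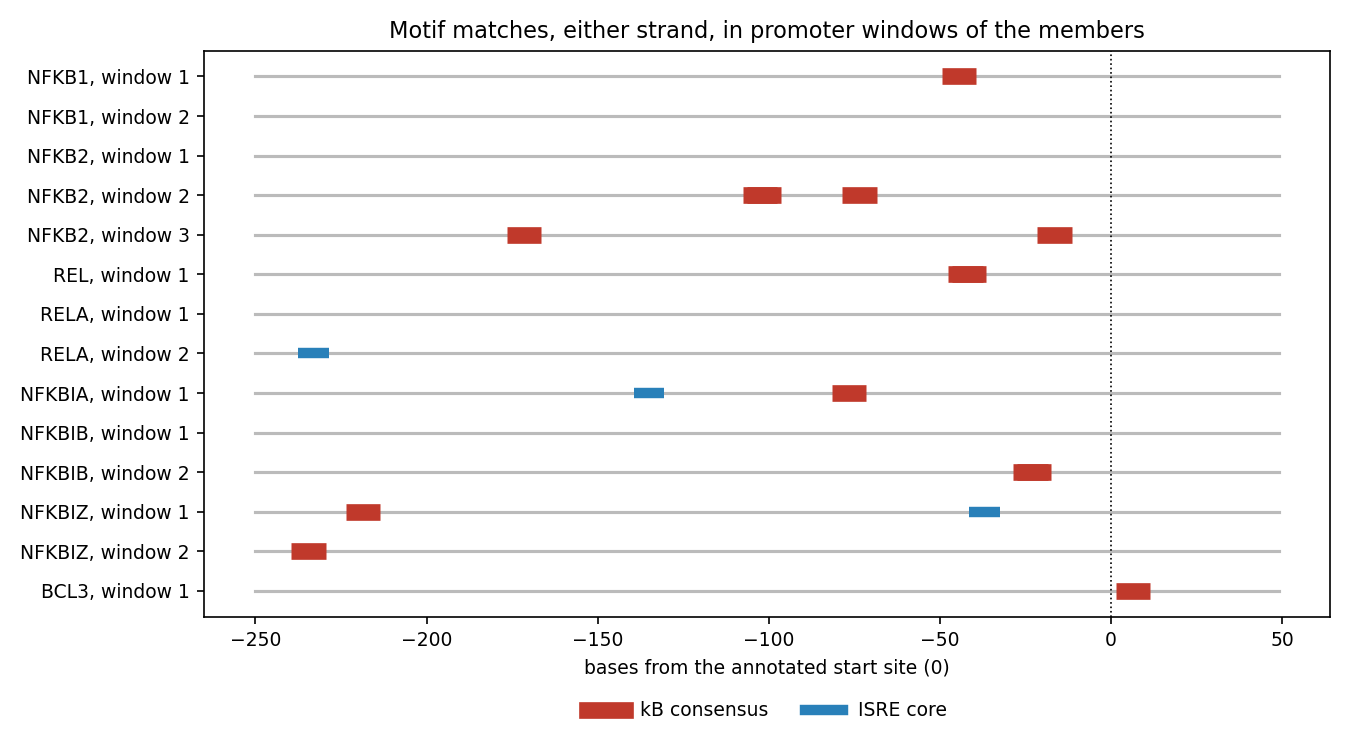
Positions of matches to the kB consensus and to the interferon-response core in the 14 promoter windows of 8 members, plotted as distance in bases from the annotated start. The windows of NFKBIA, NFKBIZ and BCL3 each hold a kB match, as do windows of NFKB1, NFKB2, REL and NFKBIB.

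Gene counts per library were 42682395 and 40290379 with Cx43sh1, 41344009 and 43736498 with Cx43sh2, 39135339 and 38219702 in the control coculture, and 42752003 and 48997555 in control cells alone. A floor of 3 counts was worth 0.0624 to 0.0805 CPM (counts scaled to a common library size), far under every member's level, and covers counting error only. GJA1, which encodes Cx43, was at 27.8 and 27.8 CPM with Cx43sh1, 31.7 and 33.8 CPM with Cx43sh2, 65.9 and 64.7 CPM in the control cocultures and 51.1 and 46.3 CPM in control cells alone. Alignments that were not unique were most frequent in control coculture library 1, at 26.1%, and made up 14.2% to 21.5% of the other libraries. Summed astrocyte markers (9 genes) were 57.7 to 71.6 CPM in depleted cocultures, 69.0 to 70.3 CPM in control cocultures and 51.0 to 54.9 CPM in control cells alone. Of the 6 tested, 3 were called higher in control cocultures against cells alone, GFAP by 1.54-fold, SLC1A3 by 1.85-fold and SOX9 by 1.27-fold. SLC1A2, FGFR3 and ALDH1L1 were not called, with log2 changes of 0.34, -0.34 and -0.20. SOX9 gave most of the sum, at 48.1 and 47.4 CPM in control cocultures and 39.5 and 35.6 CPM in control cells alone. SLC1A3 was called lower with depletion. GJB6 and S100B were at or under 3 counts in every library. Summed microglia and macrophage markers (10 genes) were 133 to 153 CPM in depleted cocultures, 149 to 151 CPM in control cocultures and 87.5 to 88.2 CPM in control cells alone. All 4 of those tested were called higher in control cocultures against cells alone, and 1 was called lower with depletion. LAPTM5 gave most of that sum, at 83.0 to 148 CPM over all libraries, while TYROBP and AIF1 were at 0 in all 8. The 10 markers of the carcinoma line summed to 4945 to 5398 CPM in depleted cocultures, 5934 to 6118 CPM in control cocultures and 5293 to 5673 CPM in control cells alone, and 4 of them were called lower with depletion. The 6 fibroblast markers summed to 421 to 496 CPM in depleted cocultures, 741 to 795 CPM in control cocultures and 648 to 1052 CPM in control cells alone, and 2 of the 5 tested were called lower with depletion. These are bulk libraries, so fewer cells with a transcript and less of it per cell cannot be told apart, and the part of other cells' RNA in the results was not tested.

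Per kilobase of exon, the members spanned a wide range of levels. In control cocultures NFKBIA stood highest at 70.3 ± 4.55 CPM per kb (SD, n = 2, as for the other levels here). RELA followed at 31.0 ± 2.47 and RELB at 27.1 ± 1.15 CPM per kb. NFKBIB at 22.9 ± 0.203 and NFKBIE at 21.1 ± 0.283 CPM per kb came next, then BCL3 at 14.5 ± 0.0651 CPM per kb. The precursors were lower, at 8.74 ± 0.379 CPM per kb for NFKB1 and 7.45 ± 0.217 for NFKB2. NFKBIZ at 3.13 ± 0.170 and REL at 0.181 ± 0.00296 CPM per kb closed the order. The neighbours RELA and RELB differed by little more than their SDs, and the other neighbouring pairs differed by more than the SDs of both. REL, a subunit best known from lymphoid cells, thus rested on 70 to 172 counts per library. Lengths are unions of GENCODE 29 exons, which count exons that a given transcript may not use.

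**Figure D2:**
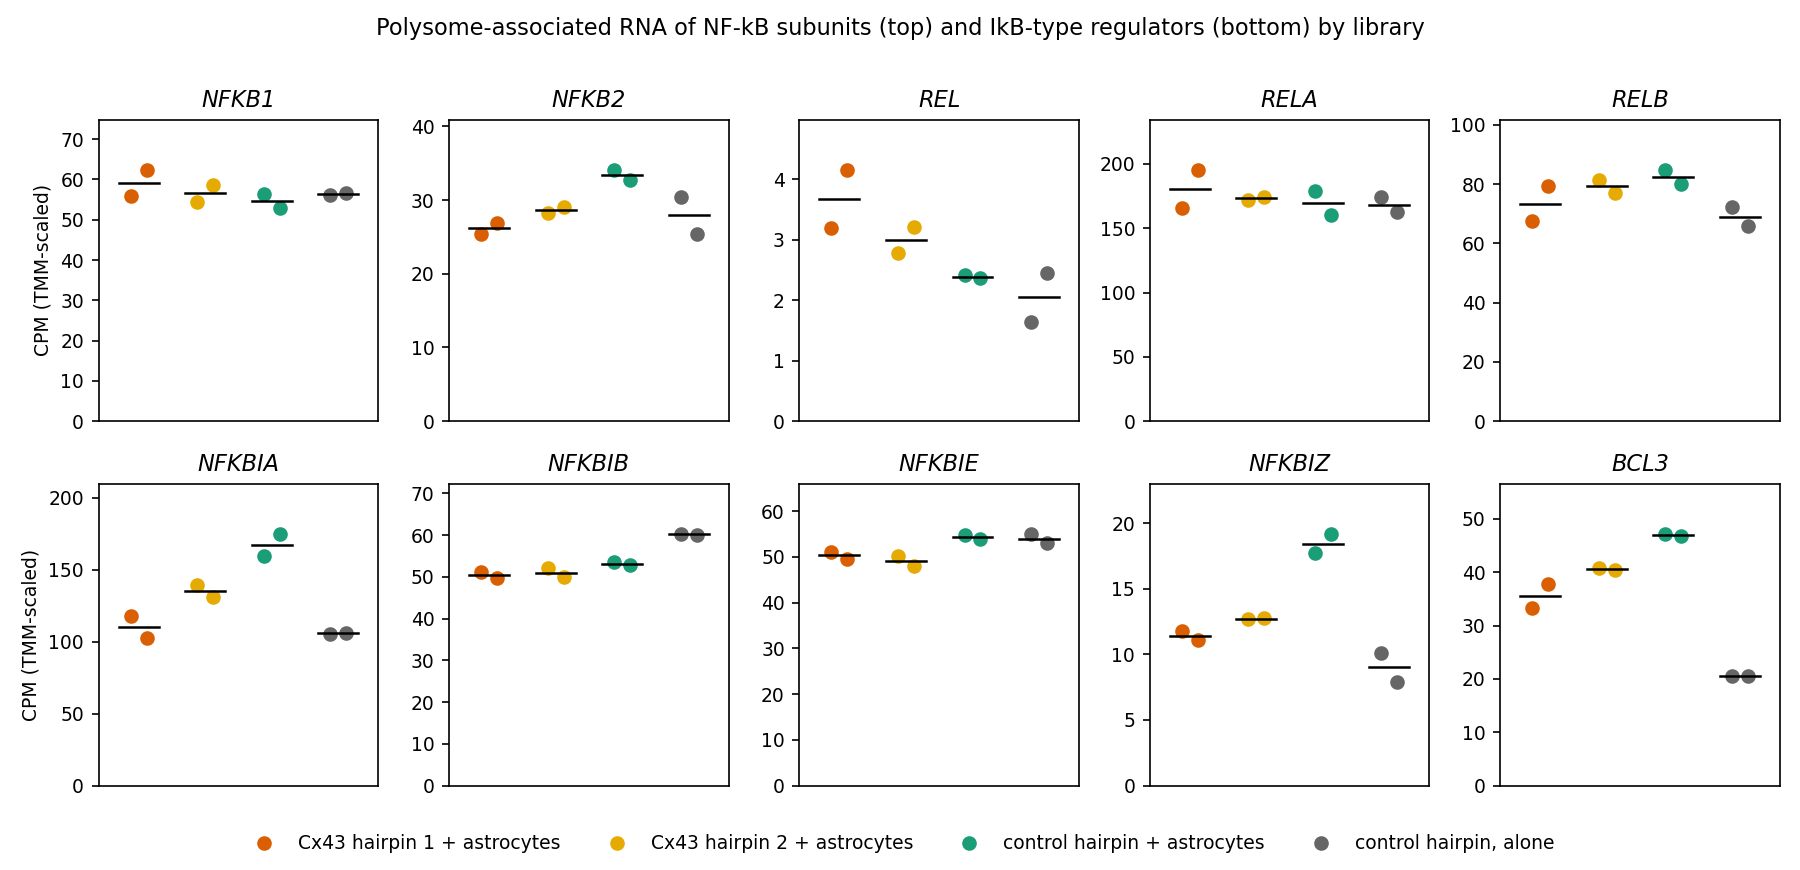
CPM of each of the 10 members in each library, by group from left to right Cx43sh1 coculture, Cx43sh2 coculture, control coculture and control cells alone, with 1 point per library and a line at the mean. NFKBIA, NFKBIZ and BCL3 are highest in both control coculture libraries, while NFKB1 and RELA overlap among groups.

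Growth with astrocytes went with more RNA on ribosomes for 3 of the 5 IkB-type regulators and for none of the 5 subunits. NFKBIA, NFKBIZ and BCL3 rose, by 1.58-fold, 2.05-fold and 2.29-fold in control cocultures against control cells alone. The comparison asks how RNA on the carcinoma cells' ribosomes differs between coculture with astrocytes and growth alone. By edgeR's quasi-likelihood test at an adjusted p of 0.05, 11.7% of all tested genes were called here, 8.74% higher and 2.93% lower. The median log2 change was 0.66 over the 5 IkB-type genes, 0.21 over the 5 subunits and -0.00256 over all tested genes. Of the 5 subunits, 2 had an unadjusted p under 0.05 in edgeR, and DESeq2 and limma called 0. The share of all tested genes under that unadjusted p was not counted, here or below. Astrocyte, macrophage and carcinoma-line marker sums were also higher in control cocultures than in cells alone, by the values given above. So was the sum of 4 endothelial markers, at 9.55 to 10.0 CPM against 6.28 to 8.23 CPM, while the fibroblast sums overlapped. Of the 10 carcinoma-line markers 2 were called higher and 0 lower. SOX9 gave most of the astrocyte sum and LAPTM5 most of the macrophage sum. The 3 rises were called in each of 16 other analyses, which changed the scaling, the tool, the filter, the design or the libraries used.

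BCL3, the nuclear cofactor, had 47.1 and 46.8 CPM in control cocultures, against 20.6 and 20.5 CPM in control cells alone. The groups stood far apart and the libraries within each nearly coincided. The log2 change was 1.19 ± 0.08 (SE), with an adjusted p of 1.99e-05 by edgeR. NFKBIZ, the other nuclear regulator and an early-response gene, had 17.7 and 19.2 CPM in control cocultures, against 10.1 and 7.92 CPM in control cells alone. Both coculture libraries were above both libraries of cells alone, with a log2 change of 1.04 ± 0.11 (SE) and an adjusted p of 0.000588 by edgeR. NFKBIA, the feedback inhibitor, had 159 and 175 CPM in control cocultures, against 105 and 106 CPM in control cells alone. The groups did not overlap, and its log2 change was 0.66 ± 0.09 (SE), with an adjusted p of 0.00155 by edgeR.

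The other cytoplasmic inhibitors passed no test in this comparison. NFKBIB had 53.5 and 52.8 CPM in control cocultures, against 60.2 and 60.1 CPM in control cells alone, a log2 change of -0.18 with an adjusted p of 0.0961 by edgeR. Its groups did not overlap, but the difference missed the threshold. With 2 libraries a group, values of an unchanged gene can also fail to overlap. The share of all tested genes that did so was not counted, here or below. NFKBIE had 54.9 and 53.9 CPM in control cocultures, against 55.0 and 53.0 CPM in control cells alone. These overlapped, with a log2 change of 0.01 and a 95% interval of -0.13 to 0.15.

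Among the subunits, the activating RELA overlapped between groups. It had 179 and 160 CPM in control cocultures, against 174 and 162 CPM in control cells alone, with a log2 change of 0.01 and an interval of -0.20 to 0.22. NFKB1 likewise overlapped, at 56.4 and 53.0 CPM in control cocultures, against 56.2 and 56.5 CPM in control cells alone. The partners of the non-canonical arm, NFKB2 and RELB, had higher values in both coculture libraries than in both libraries of cells alone. NFKB2 was at 34.1 and 32.7 CPM in control cocultures, against 30.4 and 25.4 CPM in control cells alone, a log2 change of 0.26 with an adjusted p of 0.110 by edgeR. RELB was at 84.8 and 79.9 CPM in control cocultures, against 72.2 and 65.9 CPM in control cells alone, a log2 change of 0.25 with an adjusted p of 0.108 by edgeR. Neither passed in the main fit. The call of RELB changed when either Cx43sh1 library, no part of this comparison, was left out of the shared fit. Its log2 change stayed at 0.25, so the change of call is no separate test. REL, at 2.42 and 2.36 CPM in control cocultures, against 1.64 and 2.45 CPM in control cells alone, overlapped.

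**Figure D3:**
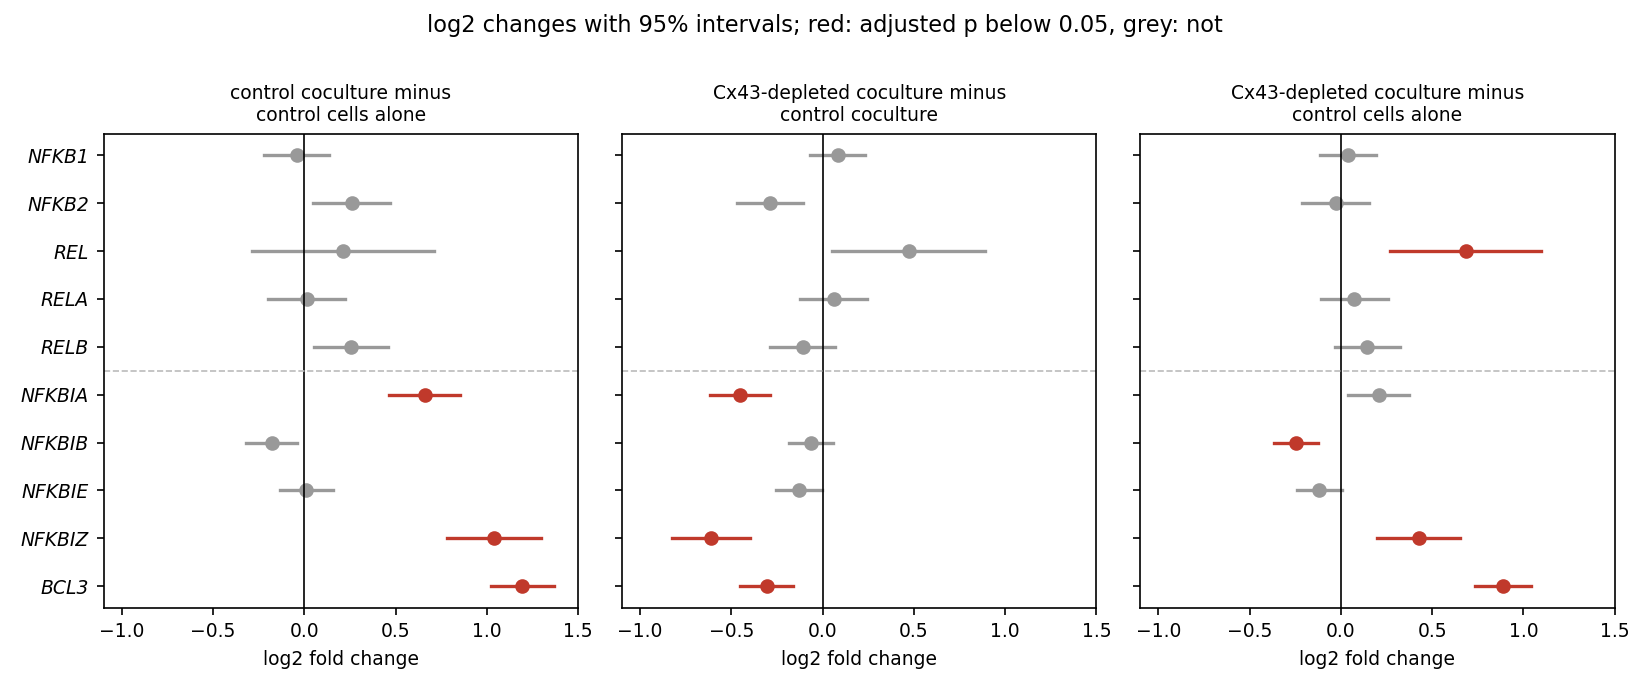
Log2 fold changes of the 10 members with 95% intervals in control coculture minus control cells alone, Cx43-depleted coculture minus control coculture, and Cx43-depleted coculture minus control cells alone, in red where the adjusted p is below 0.05. NFKBIA, NFKBIZ and BCL3 lie right of 0 in the first comparison and left of 0 in the second.

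Depletion of Cx43, the gap-junction protein through which carcinoma cells and astrocytes can couple, went with lower levels of NFKBIA, NFKBIZ and BCL3 in coculture. Taking both hairpins together, NFKBIZ fell to 0.654 of its level in the control coculture, NFKBIA to 0.731 and BCL3 to 0.809. In the main fit no subunit was called by edgeR, although 2, NFKB2 and REL, had an unadjusted p under 0.05, and DESeq2 called NFKB2. Some other edgeR settings, given below, called NFKB2 or REL. Of all tested genes, 9.22% were called in this comparison, 5.85% lower and 3.37% higher. It shares the control coculture libraries with the comparison above, so opposite signs in the 2 comparisons are no separate evidence. Summed fibroblast and carcinoma-line markers were also lower in depleted cocultures than in control cocultures, by the values given above, and their part in the result was not tested. COL1A1 gave most of the fibroblast sum. Of the 10 carcinoma-line markers 4 were called lower and 0 higher. VIM was at 2175 and 2095 CPM in control cocultures and 1356 to 1548 CPM in depleted ones. AXL was at 1257 and 1095 CPM against 1189 to 1541 CPM.

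NFKBIZ had 11.8 and 11.1 CPM with Cx43sh1 and 12.7 and 12.8 CPM with Cx43sh2, against 17.7 and 19.2 CPM in the control coculture. All 4 depleted libraries were below both control libraries, with a log2 change of -0.61 ± 0.09 (SE) and an adjusted p of 0.00604 by edgeR. NFKBIA had 118 and 102 CPM with Cx43sh1 and 140 and 131 CPM with Cx43sh2, against 159 and 175 CPM in the control coculture. The Cx43sh1 libraries were lowest and the Cx43sh2 libraries in between, and the log2 change of both hairpins was -0.45 ± 0.07 (SE), with an adjusted p of 0.00739 by edgeR. BCL3 had 33.4 and 37.8 CPM with Cx43sh1 and 40.8 and 40.4 CPM with Cx43sh2, against 47.1 and 46.8 CPM in the control coculture. Its depleted libraries were all lower, by a log2 change of -0.31 ± 0.06 (SE), with an adjusted p of 0.0218 by edgeR. Control coculture library 2 bears on all 3 calls. Without it these calls were lost, at log2 changes of -0.38 for NFKBIA, -0.55 for NFKBIZ and -0.30 for BCL3. BCL3 also missed the threshold without control coculture library 1, at a log2 change of -0.30. It missed it too without Cx43sh2 library 1 or 2, at log2 changes of -0.31 and -0.30.

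NFKB2, the precursor processed in the non-canonical pathway, stood just outside the threshold. It had 25.4 and 26.9 CPM with Cx43sh1 and 28.2 and 29.02 CPM with Cx43sh2, against 34.1 and 32.7 CPM in the control coculture. All depleted libraries were lower, with a log2 change of -0.29 ± 0.08 (SE) and an adjusted p of 0.0579 by edgeR. It passed at 0.0464 with DESeq2. Other edgeR fits called it at 0.0230 without the low-count filter, 0.0493 with a mean count of at least 50 and 0.0348 with only the compared groups. With edgeR it passed at 0.0400 without Cx43sh1 library 2 and at 0.0386 and 0.0350 without control-alone library 1 or 2. REL, the least abundant member, ran the other way in value, at 3.19 and 4.15 CPM with Cx43sh1 and 2.77 and 3.21 CPM with Cx43sh2, against 2.42 and 2.36 CPM in the control coculture. The groups did not overlap, but the log2 change of 0.47 ± 0.18 (SE) had an adjusted p of 0.147 by edgeR. Without the low-count filter REL was called, with a log2 change of 0.48 and an adjusted p of 0.0186 by edgeR.

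The remaining members passed no test of depletion. RELA had 165 and 195 CPM with Cx43sh1 and 172 and 174 CPM with Cx43sh2, against 179 and 160 CPM in the control coculture. NFKB1 ran from 54.4 to 62.4 CPM over the 4 depleted libraries, against 56.4 and 53.0 CPM in the control cocultures and RELB from 67.6 to 81.3 CPM, against 84.8 and 79.9 CPM in the control coculture. NFKBIB ran from 49.8 to 52.1 CPM over the depleted libraries, against 53.5 and 52.8 CPM in the control cocultures and NFKBIE from 47.9 to 51.1 CPM, against 54.9 and 53.9 CPM in the control coculture. Depleted and control values overlapped for the 3 subunits and did not overlap for the 2 inhibitors. The log2 changes were -0.07 for NFKBIB and -0.13 for NFKBIE, with adjusted p-values of 0.486 and 0.179 by edgeR. Failing to overlap is no sign of a change by itself, since the share of all tested genes doing so was not counted.

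Each hairpin was also set against the control coculture by itself. With Cx43sh1, NFKBIA, NFKBIZ and BCL3 fell, by log2 changes of -0.60, -0.69 and -0.40 and adjusted p-values of 0.00525, 0.00960 and 0.0172 by edgeR. In this comparison 7.82% of all tested genes were called, 4.73% lower and 3.09% higher. With Cx43sh2, NFKBIZ fell by 0.53 on the log2 scale, with an adjusted p of 0.0333 by edgeR, where 4.16% of tested genes were called, 3.2% lower and 0.962% higher. NFKBIA and BCL3 had log2 changes of -0.30 and -0.21 with Cx43sh2 and adjusted p-values of 0.0896 and 0.161 by edgeR.

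These calls were lost when some single libraries were left out, while the log2 changes stayed below 0. With Cx43sh1 they ran over the other analyses from -0.703 to -0.502 for NFKBIA and from -0.745 to -0.631 for NFKBIZ. BCL3 with Cx43sh1 ran from -0.493 to -0.311, and NFKBIZ with Cx43sh2 from -0.590 to -0.467. Without control coculture library 2, the Cx43sh1 calls had adjusted p-values of 0.0522 for NFKBIA, 0.0732 for NFKBIZ and 0.0921 for BCL3 by edgeR. BCL3 with Cx43sh1 also missed the threshold without control coculture library 1, at 0.0728, and without Cx43sh2 library 1 or 2, at an adjusted p of 0.0530 each. NFKBIZ with Cx43sh2 missed it without either control coculture library, at adjusted p-values of 0.0945 and 0.188, and without either Cx43sh2 library, at 0.226 and 0.263. The call of NFKBIA with Cx43sh2 changed when either Cx43sh1 library, no part of that comparison, was left out of the shared fit. Its log2 change was then -0.31.

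A call with one hairpin and not with the other does not show that they differ, and the difference itself passed for no member. Of all tested genes, 0.0316% were called between Cx43sh2 and Cx43sh1, 0.0253% higher and 0.00633% lower with Cx43sh2. NFKBIA came nearest, at 140 and 131 CPM with Cx43sh2 against 118 and 102 CPM with Cx43sh1. The log2 difference was 0.30, with a 95% interval of 0.10 to 0.49, an unadjusted p of 0.00728 and an adjusted p of 0.705 by edgeR. BCL3 had a log2 difference of 0.19, with an interval of 0.02 to 0.36, an unadjusted p of 0.0314 and an adjusted p of 0.705 by edgeR. These 2 were the members with an unadjusted p under 0.05, and DESeq2 and limma also called none of the 10. GJA1 itself had a log2 difference of 0.24 in the same direction, with an adjusted p of 0.705 by edgeR.

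In depleted cocultures BCL3 and NFKBIZ were still higher than in cells without astrocytes, while NFKBIA passed no such test. Depleted cocultures, both hairpins together, were set against control cells alone, a comparison in which 17.1% of tested genes were called, 10.8% higher and 6.34% lower. BCL3 stayed well above, at 33.4 to 40.8 CPM over the 4 depleted libraries, against 20.6 and 20.5 CPM in control cells alone. Its log2 change was 0.89 ± 0.07 (SE), with an adjusted p of 0.000160 by edgeR, and it was called in each of 16 other analyses. NFKBIZ was at 11.1 to 12.8 CPM in depleted cocultures, against 10.1 and 7.92 CPM in control cells alone, a log2 change of 0.43 ± 0.10 (SE) with an adjusted p of 0.0239 by edgeR. NFKBIA overlapped, at 102 to 140 CPM in depleted cocultures, against 105 and 106 CPM in control cells alone, and its log2 change of 0.21 had an adjusted p of 0.0872 by edgeR. As a share of the log2 rise seen with control hairpins, 74.3% remained for BCL3, 41.0% for NFKBIZ and 31.4% for NFKBIA. These shares use the same control libraries above and below the line and are given as a description.

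The same comparison called 2 members that neither of its component comparisons had called. REL had 2.77 to 4.15 CPM in depleted cocultures, against 1.64 and 2.45 CPM in control cells alone, with a log2 change of 0.68 ± 0.18 (SE) and an adjusted p of 0.0354 by edgeR. NFKBIB had 49.8 to 52.1 CPM in depleted cocultures, against 60.2 and 60.1 CPM in control cells alone, with a log2 change of -0.25 ± 0.05 (SE) and an adjusted p of 0.0164 by edgeR. Neither call held without some of the single libraries. In those fits the log2 change was 0.419 to 0.734 for REL and -0.260 to -0.231 for NFKBIB. REL missed the threshold without control-alone library 1, at an adjusted p of 0.208, without Cx43sh1 library 2, at 0.0639, and without Cx43sh2 library 1 or 2, at 0.0688 and 0.119. NFKBIB missed it without control-alone library 1 or 2, at adjusted p-values of 0.0958 and 0.0943, and without Cx43sh2 library 1 or 2, at 0.0503 and 0.0811. NFKBIZ, above, missed it without control-alone library 2, at an adjusted p of 0.183, and without Cx43sh2 library 1 or 2, at 0.0696 and 0.0856 by edgeR. NFKBIA passed without Cx43sh1 library 2, at an adjusted p of 0.0367, and RELB without Cx43sh1 library 1, at 0.0404 by edgeR.

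The balance between BCL3 and NFKBIA is given as a description, which needs no scaling between libraries and has no test. The log2 ratio of BCL3 counts to NFKBIA counts was -1.82 and -1.44 with Cx43sh1, -1.78 and -1.69 with Cx43sh2, -1.76 and -1.90 in the control coculture, and -2.35 and -2.37 in control cells alone. All 6 coculture libraries were above both libraries of cells alone, and the depleted and control cocultures overlapped.

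The tested genes most like each of the 3 regulators were ranked by Pearson's r of log2 CPM over the 8 libraries. For NFKBIA they were CXCL1, IL8 and PTGS2, with r of 0.990, 0.989 and 0.986. The first pair are neutrophil-attracting chemokines and PTGS2 makes prostaglandins. For NFKBIZ they were GDF15, CX3CL1 and GPM6A, with r of 0.993, 0.992 and 0.984, and for BCL3 they were THBD, IRAK2 and PTGES, with r of 0.997, 0.996 and 0.994. THBD encodes thrombomodulin, IRAK2 a kinase of interleukin-1 receptor signalling, and PTGES a prostaglandin E synthase. No gene stood on more than 1 of these lists. The 8 points are the 4 groups of 2 libraries compared above, and no p is given.

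The rest of the pathway was read from lists of ligands, receptors, adaptors, kinases, brakes and target genes. Of 84 listed genes in the table, 76 were tested, and 40 were higher and 2 lower in control cocultures against control cells alone. Their median log2 change was 0.37, against -0.00256 over all tested genes. With Cx43 depletion 28 were lower and 2 higher, with a median of -0.17 against -0.00798 over all tested genes. The few genes that went the other way in each comparison lost their calls when any control coculture or control-alone library was left out, which left 30 to 34 higher in cocultures. The depletion count came to 15 without control coculture library 2 and to 16 without Cx43sh2 library 2. The lists and the 10 members were chosen with earlier results of these data known. Shares over all tested genes were 8.74% higher and 2.93% lower in control cocultures, and 5.85% lower and 3.37% higher with depletion. The counts of each list below stand beside these shares.

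Of 4 ligands tested that switch the pathway on, 3 were higher in control cocultures and the count with depletion was 3 lower. IL1B, encoding interleukin-1 beta, had 6.94 and 6.37 CPM with Cx43sh1, 15.4 and 14.1 CPM with Cx43sh2, 18.4 and 19.5 CPM in the control cocultures and 3.45 and 3.79 CPM in control cells alone. It was higher in every coculture library than in cells alone, and its log2 change in the control coculture against cells alone was 2.38. The hairpins were unlike: against the control coculture the log2 change was -1.51 with Cx43sh1, with an adjusted p of 2.43e-05 by edgeR, and -0.36 with Cx43sh2, with an adjusted p of 0.0623, and the log2 change of both together was -0.93. The log2 difference between Cx43sh2 and Cx43sh1 was 1.15, with a 95% interval of 0.94 to 1.36 and an adjusted p of 0.00678 by edgeR. Other settings called further pathway genes, given with the target genes below. In the main fit this was the 1 call among the 76 tested. That call was lost without Cx43sh2 library 1 or 2, at adjusted p-values of 0.190 and 0.0666 by edgeR. IL1A, the other interleukin-1 ligand, had 8.21 and 7.05 CPM with Cx43sh1, 8.99 and 8.94 CPM with Cx43sh2, 16.7 and 16.7 CPM in the control cocultures and 8.09 and 8.61 CPM in control cells alone. The depleted cocultures and the cells alone overlapped for IL1A, whose log2 changes were 1.00 and -1.01. TNFSF13B, a ligand of B-cell survival receptors, had log2 changes of 3.19 and -2.54 at levels of at most 3.65 CPM. TNFSF12, the fourth ligand tested, passed neither test. TNF itself reached at most 0.0514 CPM, under the floor of 3 counts in every library.

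Receptors and adaptors were called in part. Of 10 receptors tested, 5 were higher in control cocultures and none lower, and 2 were lower and 1 higher with depletion. When single libraries were left out, 3 to 5 were called in control cocultures and 1 to 4 with depletion, where omission of any control coculture, Cx43sh2 or control-alone library left 1. TLR3, a sensor of double-stranded RNA, had log2 changes of 1.76 in the control coculture against cells alone and -0.93 with depletion. IL1R1, the interleukin-1 receptor, had 49.9 and 53.1 CPM with Cx43sh1, 54.2 and 57.2 CPM with Cx43sh2, 48.1 and 47.8 CPM in the control cocultures and 23.0 and 24.5 CPM in control cells alone. It was thus high in all 6 coculture libraries, with a log2 change of 1.01 in the control coculture against cells alone, and its log2 change of 0.16 with depletion was not called. Of 13 adaptors, 3 were higher and 1 lower in control cocultures, and 1 was higher and 3 lower with depletion. The adaptors called numbered 2 to 5 in control cocultures and 1 to 5 with depletion when single libraries were left out, the lowest of each without any 1 control coculture, Cx43sh2 or control-alone library, and DESeq2 called 1 with depletion. MYD88, which links interleukin-1 and Toll-like receptors to the IRAK kinases, had log2 changes of 0.97 and -0.72.

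Calls in the kinase layer stand beside 8.74% of all tested genes called higher in control cocultures and 9.22% called with depletion. Of 9 IkB kinases and relatives, 2 (IKBKE and TANK) were higher in control cocultures, by 0.27 and 0.30 on the log2 scale, and none passed with depletion. With depletion 3 of the 9 had an unadjusted p under 0.05 in edgeR, and DESeq2 and limma called 0 after adjustment. Neither rise was stable, since IKBKE missed the threshold in 10 of 16 other analyses and TANK in 11 of 16, the omission of any control coculture or control-alone library among them, with adjusted p-values of up to 0.157 and 0.260. The IkB-like genes NFKBID and NFKBIL1 passed neither test, nor did either have an unadjusted p under 0.05 in edgeR or a call by DESeq2.

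Brakes on the pathway, like NFKBIA, were called in part. Of 12 tested, 6 were higher in control cocultures and 5 lower with depletion, and none went the opposite way. When single libraries were left out, 3 to 7 were called in control cocultures, the 3 without control coculture library 1 or control-alone library 2. With depletion 2 to 6 were called, with 2 left without control coculture library 1 or Cx43sh2 library 2 and 3 without Cx43sh2 library 1. N4BP1, an inhibitor of NF-kB signalling, had log2 changes of 0.92 in the control coculture against cells alone and -0.69 with depletion. TNFAIP3, a ubiquitin-editing enzyme, had 26.0 and 27.6 CPM with Cx43sh1, 31.3 and 33.5 CPM with Cx43sh2, 42.3 and 36.3 CPM in the control cocultures and 22.6 and 21.5 CPM in control cells alone. By group means its order was that shared by NFKBIA, NFKBIZ and BCL3, with log2 changes of 0.83 and -0.41. The fall of TNFAIP3 missed the threshold without control coculture library 1, at an adjusted p of 0.116, and without Cx43sh2 library 1 or 2, at 0.0633 and 0.0510 by edgeR. BIRC3, an inhibitor of apoptosis and ubiquitin ligase, fell by 0.47 on the log2 scale with depletion.

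Target genes were called more often than not. Of 26 tested, 21 were higher and 1, PTX3, lower in control cocultures, and 15 were lower and none higher with depletion. The depletion count came to 6 to 19 when single libraries were left out, with 6 without control coculture library 2 and 9 without Cx43sh2 library 2. The median log2 changes were 0.95 and -0.48. Between the hairpins 10 of the 26 had an unadjusted p under 0.05 in edgeR, and 0 were called after adjustment. The share of all tested genes under that unadjusted p was not counted, so the 10 are no result about these genes. DESeq2 called 1, CSF3, higher with Cx43sh2 by 0.88 on the log2 scale, with an adjusted p of 0.000174. Without the low-count filter edgeR called CSF3, CXCL1, CXCL2, CXCL3, IL8 and BCL2A1 higher with Cx43sh2 than with Cx43sh1. The share of all genes called in that fit was not counted. IL8, a neutrophil chemokine, had 55.1 and 42.7 CPM with Cx43sh1, 68.5 and 65.3 CPM with Cx43sh2, 101 and 123 CPM in the control cocultures and 38.3 and 43.0 CPM in control cells alone. By group means its order was likewise that shared by NFKBIA, NFKBIZ and BCL3, with log2 changes of 1.46 and -0.97. VCAM1, an adhesion molecule, had 1.57 and 1.33 CPM with Cx43sh1, 1.69 and 1.89 CPM with Cx43sh2, and 11.8 and 12.7 CPM in the control cocultures and reached at most 0.0832 CPM in control cells alone. CXCL5 and CXCL6, chemokines of the same family as IL8, had log2 changes of 3.44 and 4.83 in control cocultures against cells alone and stayed 2.98 and 4.13 above cells alone in depleted cocultures.

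**Figure D4:**
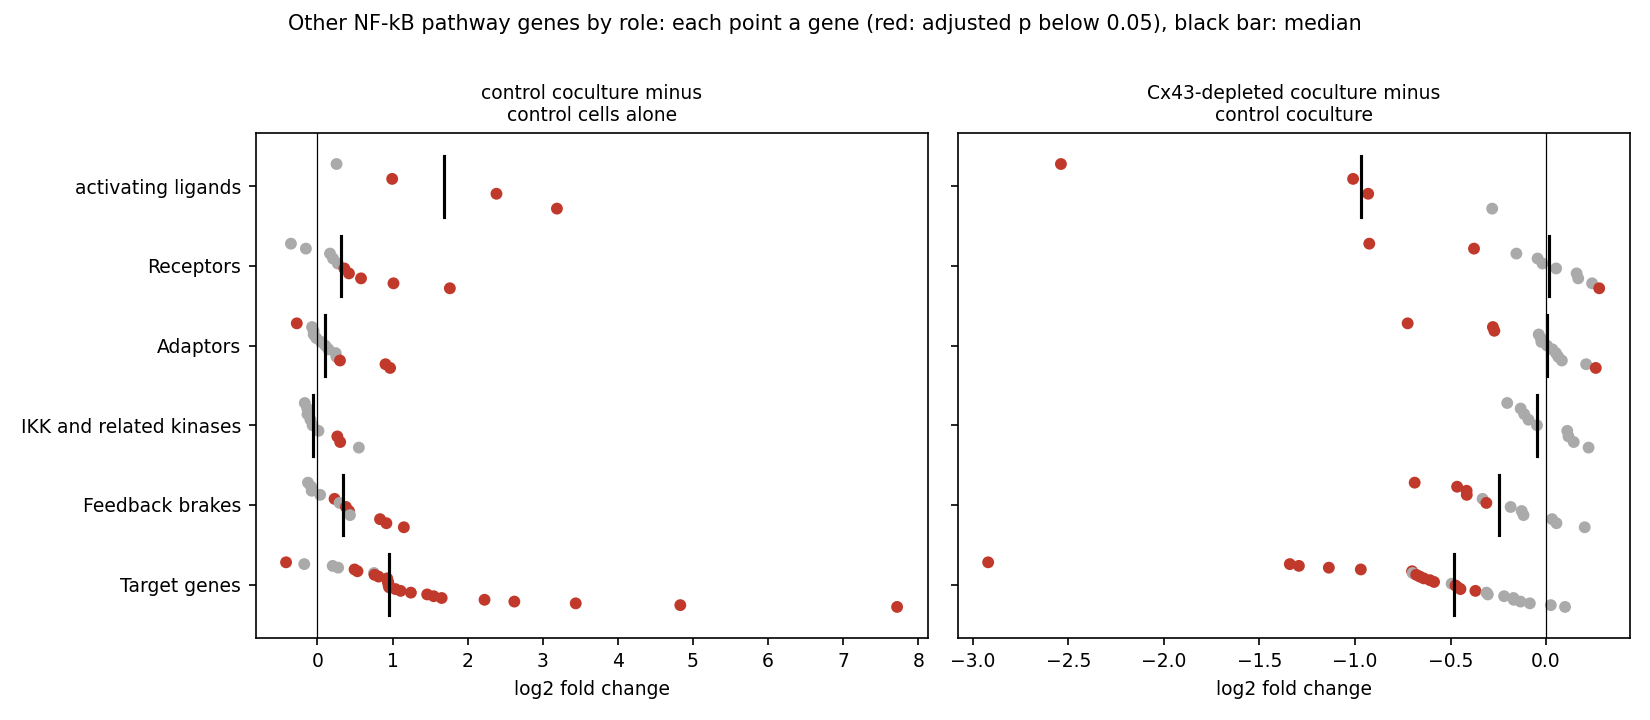
Log2 changes of tested genes in the pathway lists other than the IkB-like genes, with 1 point per gene (red where the adjusted p is below 0.05) and a bar at the median, for control coculture minus control cells alone and for Cx43-depleted coculture minus control coculture. Target genes spread furthest to the right in the first comparison, where 21 of 26 were called higher, and 15 of 26 were called lower in the second.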

How the data were processed

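The 8 libraries hold polysome-associated RNA captured with anti-GFP beads and prepared with a TruSeq RNA kit, per the labels' protocols. The submitters' processing notes name TopHat2, HTSeq, DESeq2 and the build hg19 and give no versions, while annotation, counting mode and strand are not given in the sources used here. Without strand, reads of a gene and of an overlapping or antisense partner cannot be told apart. The deposited table holds counts per gene: all values were whole, no column skipped an integer below 212, and median-ratio factors ran from 0.892 to 1.14, so the values were treated as raw counts although the name the authors gave the table calls them normalized. Its 8 columns were mapped by title, and 5 counter entries were left out. Of all entries, 14.2% to 26.1% were alignments that were not unique, 2.63% to 3.20% ambiguous, 3.77% to 4.53% outside features and 4.72% to 5.45% unaligned. The 2 libraries of a group were not copies of each other, since they differed by 4.27 to 33.3 in chi-square per degree of freedom. The lowest was with Cx43sh2 and the highest with Cx43sh1, while the groups shared their estimate of spread in the fit. Gene-count totals differed among all 8 libraries.

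Counts were tested in R 4.3.3 with edgeR 4.0.16 (quasi-likelihood, TMM factors, mean count of at least 10, 4 groups in 1 fit, common biological coefficient of variation 7.66%) and Benjamini-Hochberg adjustment over 15806 genes at 0.05. Intervals are 95%. The contrast called depletion sets the average of both hairpins against the control coculture. CPM use the TMM-scaled sizes, log2 CPM a prior count of 2, and CPM per kb GENCODE 29 exon unions. Gene identifiers were matched to GENCODE 29 and promoters to RefSeq by symbol, on GRCh38 builds. The fit was also run on simulated counts with the same spread for all genes and groups. That does not copy the unequal spread of these libraries, so it is no check of the calls here. Alternatives changed scaling, tool (DESeq2 1.42.0, limma 3.58.1), filter, design or libraries.

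The members and lists were chosen with earlier results of these data known. Named are all members, GJA1, up to 4 genes per list with the smallest p, the 3 genes most correlated with each changed member, and markers at the highest level or near 0. PTX3, TNFSF12 and TNF were named after their values were seen.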

Additional observations from a re-analysis of the deposited data

Results flagged for a closer look

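IL1B, encoding the ligand interleukin-1 beta, differed between the hairpins by a test of the difference itself. It had 15.4 and 14.1 CPM with Cx43sh2, against 6.94 and 6.37 CPM with Cx43sh1, a log2 difference of 1.15 with an adjusted p of 0.00678 by edgeR. The adjusted p was 0.0606 with the replicate block, and 0.190 and 0.0666 without Cx43sh2 library 1 or 2. Its cause was not tested.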

How the results depend on the processing

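Of the log2 changes of members and GJA1 under other settings, 984 kept their direction and side of the threshold, 26 passed it anew, 34 no longer passed and 23 changed sign. NFKBIA, NFKBIZ and BCL3 kept their calls in control cocultures against control cells alone under all 16 alternatives, where 3 to 4 members were called without single libraries. With depletion 3 members were called, 5 without a low-count filter and 0 to 4 without single libraries. With Cx43sh1 3 were called, 5 without the filter, 1 with only the compared groups in the fit and 0 to 4 without single libraries. With Cx43sh2 1 was called, 2 without the filter and 0 to 2 without single libraries. Depleted cocultures against cells alone gave 4, and 1 to 5 without single libraries. Pathway genes called with depletion numbered 30, and 15 to 37 without single libraries. Where a setting leaves a group with 1 library, that library is assumed to vary like the others. The shares of all genes called under these other settings were not counted.

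Deviations from the group means of same-numbered libraries correlated at -0.357 to 0.184, so the numbers do not pair the libraries. With the replicate block 2 members were called with depletion, where BCL3 had an adjusted p of 0.0571, 0 with Cx43sh2, 2 with Cx43sh1 and 3 in control cocultures. A crossed pairing of Cx43sh1 and control cocultures, chosen after seeing the data, called 6.

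The sign changes were of members whose changes passed no test. In control cocultures against cells alone, the log2 change of RELA was -0.00184 without the filter and -0.00036 with only the compared groups. That of NFKBIE was -0.000631 with RLE factors, -0.000589 with DESeq2, -0.00423 without the filter and -0.00172 with only the compared groups. Without single libraries, this comparison gave -0.0518 to 0.53 for REL, -0.0713 to 0.0744 for RELA and -0.0248 to 0.0234 for NFKBIE. RELA ran from -0.0112 to 0.144 with depletion, from -0.0345 to 0.209 with Cx43sh1 and from -0.0354 to 0.115 with Cx43sh2. NFKB1 ran from -0.0069 to 0.103 with Cx43sh2. In depleted cocultures against cells alone, NFKB1 ran from -0.00427 to 0.0768 and NFKB2 from -0.162 to 0.0931. In Cx43sh2 minus Cx43sh1, NFKB1 ran from -0.148 to 0.0148, RELA from -0.179 to 0.0646, RELB from -0.00746 to 0.226 and NFKBIB from -0.0136 to 0.0453. The cause was not tested.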
